A study of Mus musculus with 23 samples.

Results

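The transcripts of 5 genes that encode proteins which destroy messenger RNA were followed in mouse macrophages: Zfp36, Zfp36l1, Zfp36l2, Zc3h12a and Zc3h12c. They are 5 of 19938 genes measured, were listed by symbol, and were picked with results of these data already known. The probe set of each gene was chosen by its mean log2 expression over all 23 arrays, the highest being taken among those that carry 1 gene symbol. Of the 5, Zc3h12c had a second probe set, with a mean of 8.15 against 8.40 for the one used. The p-values below come from a fit over all 19938 genes and, because of how the genes were chosen, describe their differences and are not independent support for them.

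Marrow of wild-type C57Bl/6 mice gave the macrophages, which were raised in M-CSF, the macrophage growth factor (10 ng/mL, 6 days). Treatment followed 1 to 3 days after M-CSF was withdrawn, in all 6 groups. The vehicle group had bovine serum albumin (BSA) alone at 125 µM (5 h, n = 3). A second group had lipopolysaccharide (LPS), a bacterial agonist of TLR4, at 1 ng/mL (5 h, n = 4). The remaining 4 groups had 250 µM of a fatty acid bound to BSA, either the saturated stearic acid (SA) or oleic acid (OA), its monounsaturated counterpart of equal chain length, and each was exposed for 5 h or for 20 h (n = 4 per group). For vehicle and LPS the exposure is 5 h in the sample labels but 4 h in the series text. A 20 h vehicle was not analysed here, so setting 20 h groups against vehicle mixes treatment with time. The sample labels speak of replicate wells and the series text of biological replicates, so p-values reflect the spread between these samples and that spread may be technical.

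Zfp36, also known as tristetraprolin, and its relatives Zfp36l1 and Zfp36l2 carry tandem CCCH zinc fingers that bind AU-rich elements in the 3′ untranslated regions of short-lived mRNAs. They bring in the CCR4-NOT deadenylase, after which the mRNA is decapped or degraded from its 3′ end. Zc3h12a, also known as Regnase-1, and its relative Zc3h12c are endonucleases with a single CCCH finger, and Zc3h12a cuts stem-loops in mRNAs of inflammation such as that of Il6. In macrophages these proteins limit how long cytokine mRNAs last. The arrays measured transcript levels and neither protein nor the rate of decay.

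Macrophage markers were high on every array. All 11 measured members of a list of 12 had group means above the median gene of the arrays, which lay between 4.18 and 4.33 on the log2 scale. Below that median were 7 of 8 dendritic cell, 7 of 8 lymphocyte, 6 of 6 mast cell, 3 of 3 erythroid and 6 of 8 stromal cell markers. Of 10 neutrophil markers 8 lay above it, among them S100a8 (group means of 11.2 to 11.5), S100a9 (10.7 to 11.2), Ngp (7.50 to 8.41) and Camp (6.83 to 7.75). The other two lay below it, one of them Ly6g, the surface marker of mature neutrophils, at 2.58 to 3.25. Replicate 2 of 20 h SA stood apart, with an SD of gene deviations from the group mean of 0.215 against 0.129 to 0.185 on the other arrays.

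The promoters of the genes with the widest range, Zfp36l1 and Zc3h12c, and that of Zc3h12a are shown. LPS lowered Zfp36l1 and raised Zc3h12c and Zc3h12a, and it also raised Zfp36, whose promoter sequence is not shown. The 250 bases before the start site were taken from RefSeq (GRCm38.p6), where 4 of the 5 genes had an entry and Zfp36l2 had none. All 3 lie on the minus strand, at chr12:80113014-80113263 for Zfp36l1, chr9:52168407-52168656 for the first of the Zc3h12c start sites and chr4:125127882-125128131 for Zc3h12a. Each sequence runs 5′ to 3′, with matches to any of 6 motifs in capitals.
Zfp36l1: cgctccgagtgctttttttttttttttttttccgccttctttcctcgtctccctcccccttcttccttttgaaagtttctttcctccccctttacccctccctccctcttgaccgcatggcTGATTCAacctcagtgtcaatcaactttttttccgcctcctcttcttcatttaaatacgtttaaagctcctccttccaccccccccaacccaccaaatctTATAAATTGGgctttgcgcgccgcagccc
Zc3h12c: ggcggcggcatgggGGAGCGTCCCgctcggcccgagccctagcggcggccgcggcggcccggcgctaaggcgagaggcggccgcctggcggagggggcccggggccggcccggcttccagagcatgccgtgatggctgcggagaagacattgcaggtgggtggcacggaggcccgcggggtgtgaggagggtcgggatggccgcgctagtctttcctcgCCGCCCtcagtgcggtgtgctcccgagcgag
Zc3h12a: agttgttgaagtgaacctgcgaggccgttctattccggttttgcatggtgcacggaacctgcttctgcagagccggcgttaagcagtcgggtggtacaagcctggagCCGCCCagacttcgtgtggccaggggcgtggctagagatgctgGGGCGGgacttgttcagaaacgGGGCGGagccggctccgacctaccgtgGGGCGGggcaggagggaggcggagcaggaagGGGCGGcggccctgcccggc

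Both strands were searched for 6 motifs. The NF-kB consensus was one, and AP-1, spelled TGANTCA, was another. The cyclic AMP response element was spelled TGACGTCA. For the TATA box the letters searched were TATAAA, which lie near many start sites. For the GC box, bound by Sp factors, the letters searched were GGGCGG. The CCAAT box was searched by the letters of its name. The Zfp36l1 sequence held an AP-1 match 129 bases before the start site and a TATA match at 29, which shares 1 base with a CCAAT match on the other strand at 24. The first Zc3h12c start site had an NF-kB match at 236 and a GC box at 31. The second, at chr9:52149364-52149613, had neither and held a CCAAT box at 67. Both Zc3h12c stretches lie within the annotated gene (chr9:52109569-52168730), so their matches are not upstream of its outermost 5′ end. The Zc3h12a sequence held 5 GC boxes and no other match, and that of Zfp36 (chr7:28379229-28379478) held 1 GC box. Over all 32851 promoters of the same length, 7.25% held the NF-kB motif, 6.75% AP-1, 1.55% the cyclic AMP element, 12.4% the TATA box, 33.8% the CCAAT box and 32.7% the GC box. The GC content was 48.4% for Zfp36l1, 76.4% and 48% for the first and second Zc3h12c start sites, 66.4% for Zc3h12a and 64.8% for Zfp36, against a median of 52.4%. These matches are a description and not evidence of binding.

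LPS separated all 5 genes from vehicle, the relatives Zfp36l1 and Zfp36l2 falling and Zfp36, Zc3h12a and Zc3h12c rising. Zfp36l2 fell 2.93-fold and Zfp36l1 3.22-fold, while Zc3h12c rose 2.80-fold, Zc3h12a 1.83-fold and Zfp36 1.23-fold. All 5 were called, at an adjusted p under 0.05, beside 22.4% of all genes in this comparison (9.22% higher and 13.2% lower). SA gave 2 calls at 5 h, Zfp36l1 lower and Zc3h12c higher than vehicle (3.33% of all genes), and OA gave none (0.0702% of all genes). These comparisons share the same 3 vehicle arrays.

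**Figure D1:**
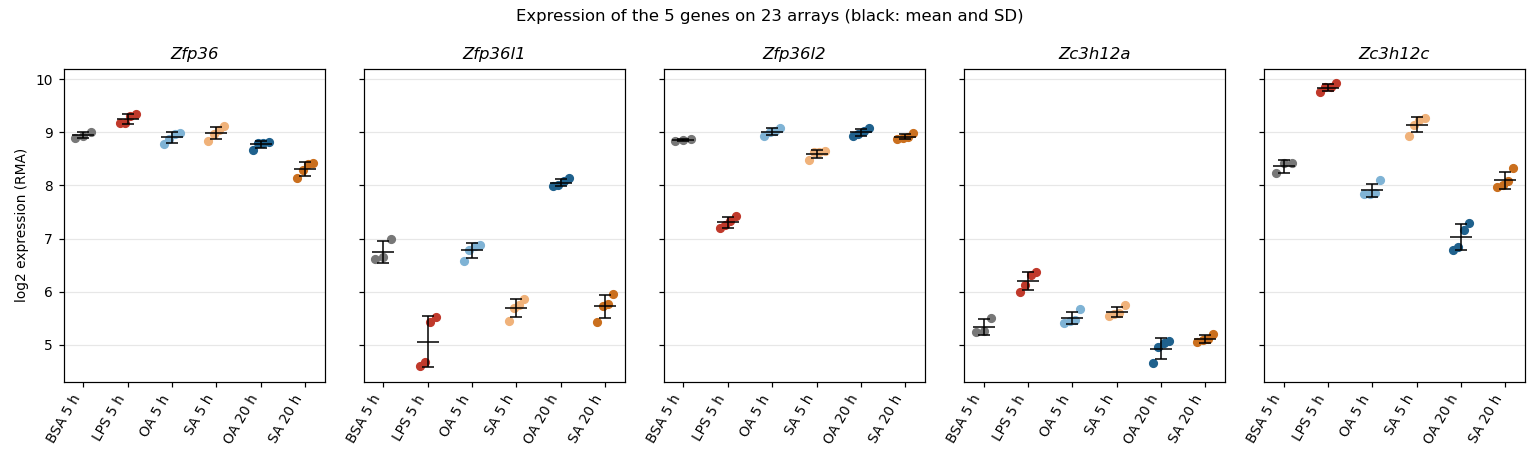
Log2 expression (RMA) of the 5 genes, 1 panel each, on the 23 arrays by group, with a coloured point per array and black bars for the group mean and SD. Zfp36l1 ranges from 4.61 with LPS to 8.14 with 20 h OA, and Zc3h12c from 6.79 with 20 h OA to 9.93 with LPS.

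Zfp36l1 (GRCm38.p6 chr12:80107760-80113013, probe set 10401238) stood highest with OA at 20 h and lowest with LPS. Its log2 expression with 20 h OA was 8.09, 8.14 and 7.99 on replicates 1, 3 and 4, with replicate 2 just above the lowest. With 20 h SA it was 5.96, 5.76, 5.44 and 5.74. The lowest OA array lay about 2 log2 units above the highest SA array, so the groups did not overlap.

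At 20 h the SA level was 5.03-fold lower than the OA level, a log2 difference of -2.33 ± 0.16 (SE; adjusted p = 8.81e-11 by limma). Of 19938 genes, 15 were lower with SA than with OA by more. At 5 h the values were 5.69, 5.87, 5.75 and 5.45 with SA against 6.88, 6.79, 6.58 and 6.87 with OA. That difference, -1.09 ± 0.16 (SE; adjusted p = 7.72e-05), was smaller than at 20 h by a test of the change itself, -1.24 ± 0.23 (SE; adjusted p = 0.000968). Without replicate 2 of 20 h SA the 20 h difference was -2.34.

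The level with OA rose from 5 h to 20 h by 1.28 ± 0.16 (SE; adjusted p = 1.32e-05), whereas SA differed by 0.03 between the times (95% interval -0.31 to 0.37, adjusted p = 0.940). Vehicle arrays read 6.61, 6.64 and 6.98, close to 5 h OA, with a difference of 0.03 (95% interval -0.33 to 0.40). SA at 5 h was 2.08-fold below vehicle (-1.05 ± 0.18 SE, adjusted p = 0.000504).

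LPS arrays gave 4.67, 4.61, 5.53 and 5.42 for Zfp36l1, a mean of 5.06 ± 0.49 (SD, n = 4) against 6.75 ± 0.21 (SD, n = 3) for vehicle. Replicates 1 and 2 lay well below replicates 3 and 4, and the first pair stood near the median gene of the arrays, so the size of the fall, -1.69 ± 0.18 (SE; adjusted p = 4.88e-08), is uncertain. In order of level the groups ran 20 h OA, 5 h OA, vehicle, 20 h SA, 5 h SA and LPS. The neighbours 5 h OA and vehicle (adjusted p = 0.996) and 20 h SA and 5 h SA (adjusted p = 0.940) were not separated. SA at 5 h and LPS differed by 0.63 (adjusted p = 0.00544) although their arrays overlapped.

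Zfp36l2 (chr17:84183924-84187947, probe set 10453272) had group means of 8.60 to 9.01 in all groups but LPS, where the mean was 7.31. Its arrays lay close together in every group, with SDs of 0.02 to 0.10. The vehicle values were 8.88, 8.85 and 8.84. With LPS they were 7.33, 7.43, 7.26 and 7.19, a fall of 1.55 on the log2 scale (± 0.08 SE, adjusted p = 5.94e-14). Every LPS array lay over 1 log2 unit below every array of the other 5 groups.

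SA at 5 h gave 8.63, 8.63, 8.65 and 8.49 for Zfp36l2, below OA at 8.93, 9.03 and 9.09 on replicates 1, 2 and 4, with replicate 3 between the first pair. No SA array reached an OA array, and the difference was -0.41 ± 0.07 (SE; adjusted p = 0.000470). At 20 h SA read 8.91, 8.88, 8.98 and 8.90 and OA 9.09, 8.97, 9.02 and 8.93, which overlapped. That 20 h difference was -0.08 (95% interval -0.23 to 0.06, adjusted p = 0.546), which leaves room for SA to be lower by up to 0.23. The change of the SA to OA difference between times was 0.33 ± 0.10 (SE; adjusted p = 0.0675), short of the threshold, though it passed in 4 of the alternative fits. SA itself rose from 5 h to 20 h by 0.32 (adjusted p = 0.00273).

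The order for Zfp36l2 was 5 h OA, 20 h OA, 20 h SA, vehicle, 5 h SA and LPS. Among neighbours, LPS alone stood apart from 5 h SA (adjusted p = 4.82e-13). The others had adjusted p-values between 0.0771 and 0.978, the lowest for vehicle and 5 h SA, whose arrays did not overlap.

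Zfp36 (chr7:28376784-28379228, probe set 10561453) had the smallest range of the 5, with group means within 0.93 of each other. Vehicle read 8.90, 9.01 and 8.93 and LPS 9.34, 9.18, 9.18 and 9.31. All LPS arrays lay above all vehicle arrays, by 0.30 ± 0.09 on average (SE; adjusted p = 0.0164). This call was lost without replicate 1 of vehicle (adjusted p = 0.0678), replicate 3 of vehicle (0.0566) or replicate 1 of LPS (0.0515).

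At 5 h neither acid moved Zfp36 past the threshold. SA gave 8.84, 8.96, 9.12 and 9.04 and OA 8.97, 8.88 and 8.77 on replicates 1, 2 and 4, with replicate 3 slightly above the first. The arrays overlapped, with a difference of 0.08 (95% interval -0.09 to 0.26, adjusted p = 0.713). At 20 h SA fell to 8.40, 8.14, 8.43 and 8.30 while OA read 8.82, 8.80, 8.80 and 8.67. The groups did not overlap and differed by -0.45 ± 0.08 (SE; adjusted p = 0.000269), or -0.39 without replicate 2 of 20 h SA, its lowest array.

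The SA to OA difference of Zfp36 thus changed between the times, by -0.54 ± 0.12 (SE; adjusted p = 0.00538). SA fell by 0.67 from 5 h to 20 h (adjusted p = 2.10e-06) and OA differed by -0.13 (95% interval -0.31 to 0.04, adjusted p = 0.485). In order, LPS stood first and 20 h SA last. The 4 groups between them, 5 h SA, vehicle, 5 h OA and 20 h OA, were not separated from each other in this order (adjusted p-values of 0.485 to 0.995).

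Zc3h12a (chr4:125118414-125127881, probe set 10516266) rose with LPS to 6.32, 6.12, 6.37 and 6.00 from 5.23, 5.26 and 5.51 in vehicle. The arrays did not overlap and the rise was 0.87 ± 0.11 (SE; adjusted p = 1.09e-06). SA against OA did not pass the threshold at either time. At 5 h SA read 5.55, 5.75, 5.60 and 5.58 and OA 5.44, 5.42, 5.47 and 5.68, a difference of 0.11 (95% interval -0.10 to 0.33, adjusted p = 0.668). At 20 h SA read 5.09, 5.21, 5.04 and 5.10 and OA 4.96, 4.65, 5.08 and 5.03, a difference of 0.18 (95% interval -0.03 to 0.39, adjusted p = 0.295).

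Time did separate Zc3h12a with both acids. It fell from 5 h to 20 h by 0.51 with SA (adjusted p = 0.000976) and by 0.57 with OA (adjusted p = 0.000884), and in both the arrays of the 2 times did not overlap. Its order was LPS, 5 h SA, 5 h OA, vehicle, 20 h SA and 20 h OA. LPS and 5 h SA differed (adjusted p = 9.40e-05), and the other neighbours did not pass, with adjusted p-values of 0.220 to 0.940.

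Zc3h12c (chr9:52109569-52168730, probe set 10593492) was higher with SA than with OA at both times, the only one of the 5 called in that direction. At 5 h SA gave 9.14, 8.94, 9.24 and 9.27 and OA 8.09, 7.84, 7.86 and 7.83. No array overlapped, and SA was 2.36-fold higher (1.24 ± 0.11 SE, adjusted p = 2.88e-08), with 44 of 19938 genes higher by more.

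At 20 h SA gave 8.01, 8.33, 8.08 and 7.97 and OA 6.84, 7.30, 7.16 and 6.79. Again no array overlapped, and SA was 2.11-fold higher (1.08 ± 0.11 SE, adjusted p = 5.78e-08), or 1.00 on the log2 scale without replicate 2 of 20 h SA. The difference did not pass as changed between the times (-0.17, 95% interval -0.49 to 0.16, adjusted p = 0.738). Both acids fell with time, SA by 1.05 (adjusted p = 1.37e-07) and OA by 0.89 (adjusted p = 9.17e-06).

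Vehicle arrays of Zc3h12c read 8.42, 8.43 and 8.23 and LPS arrays 9.85, 9.93, 9.85 and 9.75, a rise of 1.49 ± 0.12 (SE; adjusted p = 4.62e-10). SA at 5 h rose by 0.79 ± 0.12 over vehicle (SE; adjusted p = 0.000140) and stayed below LPS by 0.70 (adjusted p = 2.67e-05). OA at 5 h lay below vehicle on every array, by -0.45 (95% interval -0.70 to -0.20), with an unadjusted p of 0.000992 and an adjusted p of 0.360, so it was not called.

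The order for Zc3h12c was LPS, 5 h SA, vehicle, 20 h SA, 5 h OA and 20 h OA. Vehicle and 20 h SA (adjusted p = 0.167) and 20 h SA and 5 h OA (adjusted p = 0.285) were not separated, and all other neighbours were. The second probe set of the gene, 10593497, followed the first over the 23 arrays (r = 0.99) and, in a fit of every probe set, gave 1.18 at 5 h (adjusted p = 1.14e-08) and 1.07 at 20 h (adjusted p = 7.04e-09) for SA against OA. It differed in one call of that order, since 20 h SA lay above 5 h OA by 0.29 (adjusted p = 0.0213).

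**Figure D2:**
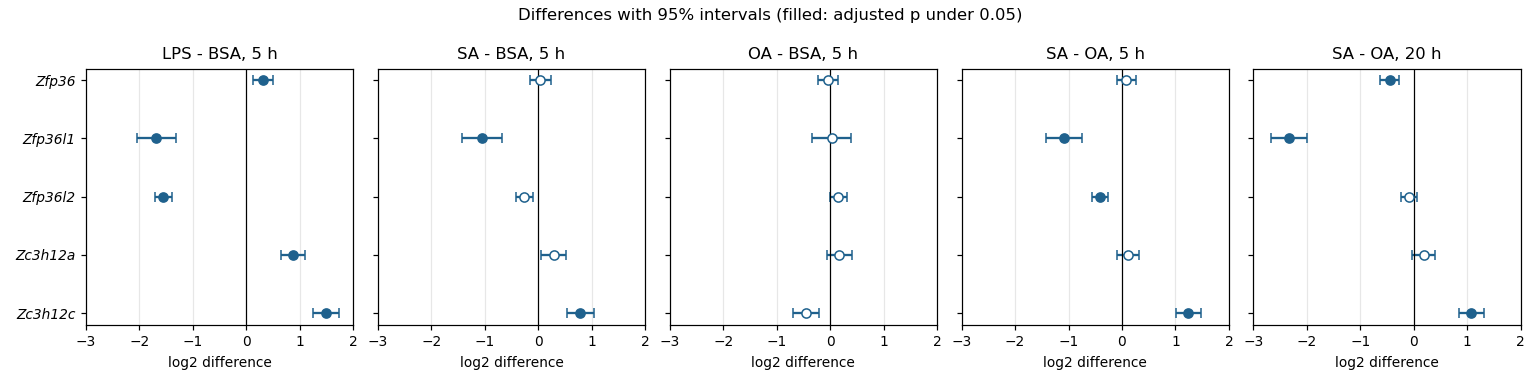
Log2 differences with 95% intervals on the horizontal axis for the 5 genes, 1 panel for each of 5 comparisons, with filled points at an adjusted p under 0.05. Zfp36l1 lies below 0 and Zc3h12c above 0 for SA against OA at both times, and at 20 h the intervals of Zfp36l2 and Zc3h12a include 0.

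In counts, SA against OA called 3 of the 5 genes at 5 h (5.67% of all genes, 3.30% higher and 2.37% lower) and 3 at 20 h (16.7% of all genes, 7.72% higher and 8.95% lower). Zc3h12c was the 1 that was higher with SA than with OA each time. Zfp36l1 and Zfp36l2 were lower with SA at 5 h, and Zfp36l1 and Zfp36 at 20 h. A test of whether that difference shifted from 5 h to 20 h called 2, Zfp36 and Zfp36l1, both lower (4.98% of all genes, 1.58% higher and 3.40% lower). All 5 differed between 5 h SA and LPS (22.1% of all genes) and between 5 h OA and LPS (26.4%). From 5 h to 20 h, SA changed 4 (12.8% of all genes) and OA 3 (4.38%). Markers of cell types moved over the same interval. Of 10 neutrophil markers, 6 rose and none fell with SA (median 0.38), and 3 rose and none fell with OA (median 0.45). Of 11 macrophage markers, 2 rose and 7 fell with SA (median -0.63), and 3 rose and 2 fell with OA (median 0.02). Of all genes, 6.23% rose and 6.57% fell with SA, and 2.58% rose and 1.80% fell with OA. The summed neutrophil level went from between 11.98 and 12.25 to between 12.40 and 12.61 with SA, and from between 12.16 and 12.30 to between 12.48 and 12.59 with OA. The part of these shifts in the time differences of the 5 genes was not tested.

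Against the 5 h vehicle, 20 h SA changed 2 genes (15.9% of all genes), with Zfp36 at -0.63 (adjusted p = 1.14e-05) and Zfp36l1 at -1.02 (adjusted p = 0.000129). The 20 h OA group changed 3 (4.70%), with Zfp36l1 at 1.31 (adjusted p = 2.07e-05), Zc3h12c at -1.34 (adjusted p = 3.65e-08) and Zc3h12a at -0.40 (adjusted p = 0.0339). The Zc3h12a call was lost without replicate 1 (adjusted p = 0.0507), 2 (0.0611) or 3 (0.235) of vehicle and without replicate 1 (0.0639) or 2 (0.144) of 20 h OA. Zfp36 against LPS in 5 h SA (-0.26, adjusted p = 0.0259) was lost without replicate 1 (0.0825) or 4 (0.0658) of LPS and without replicate 1 (0.103) or 2 (0.0556) of SA.

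Macrophage markers fell with SA as well. Of the 11 measured, 9 were lower with SA than OA at 20 h and 5 at 5 h (8.95% and 2.37% of all genes). None was higher, and the median differences were -0.80 and -0.29. Their summed level on the log2 scale ran from 13.34 to 13.39 with 20 h SA and from 13.71 to 13.77 with 20 h OA. At 5 h it ran from 13.58 to 13.66 with SA and from 13.78 to 13.80 with OA. With LPS it ran from 13.71 to 13.76, against 13.78 to 13.83 in vehicle. Of the 11 macrophage markers, 5 were lower and 2 higher with LPS than in vehicle (13.2% and 9.22% of all genes, median -0.18). Of the 10 neutrophil markers, 2 rose with LPS (9.22% of all genes) and none fell (median 0.10). None of them was called for SA against OA at either time. Against LPS, 6 of them were lower with 5 h SA (9.11% of all genes) and 4 with 5 h OA (10.8%). In bulk samples fewer cells and less RNA per cell cannot be told apart, and the part of these shifts in the differences of the 5 genes was not tested.

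Across the 23 arrays the endonucleases moved together and Zfp36l1 and Zfp36l2 moved against them. As a description over arrays that share 6 treatments, Pearson's r was 0.85 for Zc3h12a and Zc3h12c, -0.88 for Zfp36l1 and Zc3h12c, -0.84 for Zfp36l2 and Zc3h12a, and -0.83 for Zfp36l2 and Zc3h12c. Zfp36l1 and Zfp36l2 had 0.66, Zfp36l1 and Zc3h12a -0.68, and Zfp36 and Zc3h12a 0.70. Once group means were removed these values were, in the same order, -0.35, -0.24, 0.16, -0.14, -0.36, 0.23 and -0.33. Every pair with Zc3h12a and the pair of Zfp36l1 and Zfp36l2 thus changed sign within groups. The other pairs named were weaker there.

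The genes most like each member over the same 23 arrays were sought next. For Zfp36 they were the chemokines Ccl2 (r = 0.96) and Ccl9 (0.96) and the aromatic amino acid transporter Slc16a10 (0.95). For Zfp36l1 they were the RNA-binding protein Celf2 (0.97), the transcription factor Nfatc2 (0.95) and the lipase Abhd12 (0.95). For Zfp36l2 they were the receptor Tlr13 (0.98), Ypel3 (0.98) and the kinase Mknk2 (0.98).

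For Zc3h12a the nearest genes were the depalmitoylase Abhd17c (0.96), the NF-kB inhibitor Nfkbia (0.95) and the prostaglandin E synthase Ptges (0.95). For Zc3h12c they were Acod1 (0.97), which makes itaconate, the protease Malt1 (0.97) and the deubiquitinase Tnfaip3 (0.97). Within groups r over the 15 named genes ran from -0.20 for Acod1 to 0.62 for Mknk2, with 0.55 for Tlr13, 0.54 for Abhd17c, 0.40 for Celf2 and 0.28 for Ccl2.

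Reported target mRNAs of Zfp36 were mostly higher with LPS. Of 23 measured, 20 rose and 3 fell, with a median log2 difference of 1.90 against -0.02 over all genes. In vehicle 9 of the 23 had means below the median gene, with LPS 3 and in the acid groups 8 to 10. The sizes of the differences of such dim genes are uncertain. SA against OA at 5 h had 10 higher and 2 lower with a median of 0.30 (0.01 over all genes), and at 20 h 10 higher and 5 lower with a median of 0.08 (0.03 over all genes). The change between times called 1 higher and 7 lower (1.58% and 3.40% of all genes), with a list median of -0.32. The same 3 medians over all genes hold for every list that follows, as do the all-gene shares higher and lower, 9.22% and 13.2% with LPS, 3.30% and 2.37% at 5 h and 7.72% and 8.95% at 20 h, and the lists were also chosen with earlier results known.

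Tnf, the classic Zfp36 target, had a log2 expression of 10.36 ± 0.08 with SA and 9.28 ± 0.06 with OA at 5 h (SD, n = 4), and 8.60 ± 0.10 against 7.84 ± 0.09 at 20 h (SD, n = 4). SA exceeded OA by 1.08 (adjusted p = 1.11e-09) and 0.76 (adjusted p = 6.39e-08). Cxcl2, a neutrophil chemokine, was higher by 2.15 (adjusted p = 4.96e-13) and 2.77 (adjusted p = 3.08e-16).

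Ccl2, the monocyte chemokine, moved the other way by 20 h. SA read 5.18 ± 0.16 and OA 8.05 ± 0.16 (SD, n = 4), a difference of -2.87 (adjusted p = 1.18e-12), whereas at 5 h it was 0.48 (adjusted p = 0.0865). The change between times was -3.34 (adjusted p = 7.50e-10). The 3 targets lower with LPS, named after their values were seen, were Fos, Myc and Dusp1. Fos and Myc, transcription factors of the early response to growth signals, were also lower with SA than OA at 20 h, by -1.33 (adjusted p = 4.56e-11) and -0.87 (adjusted p = 4.51e-08). With LPS they were lower by -1.38 (adjusted p = 3.91e-11) and -1.46 (adjusted p = 9.95e-12).

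**Figure D3:**
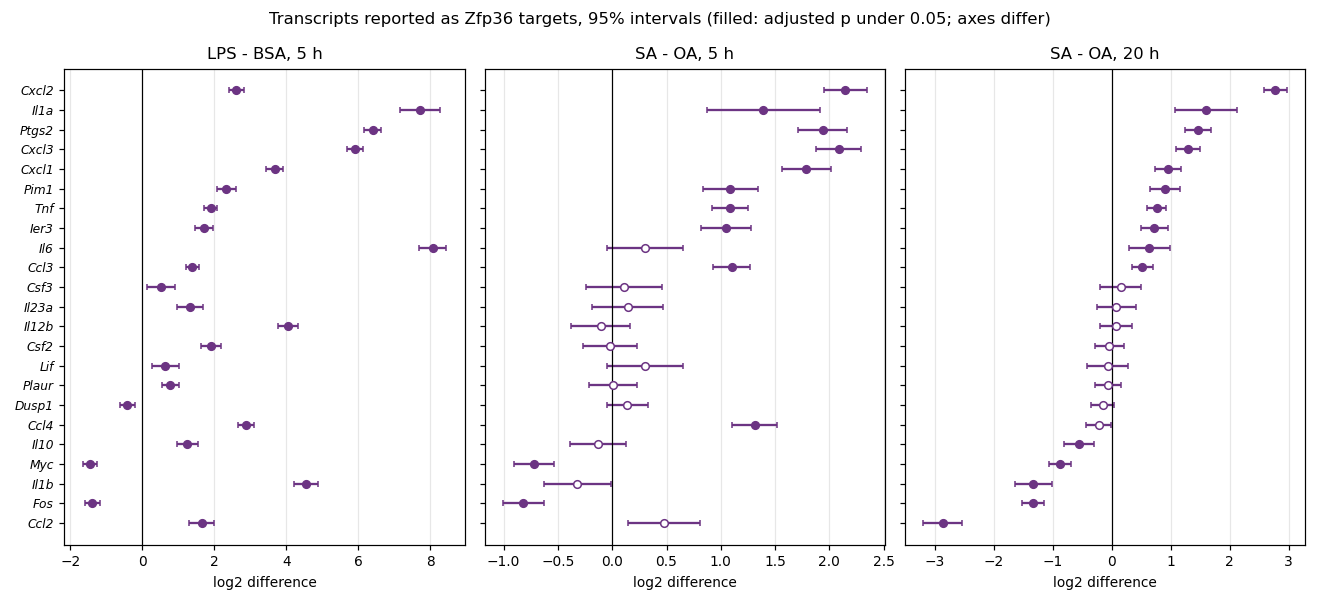
Log2 differences with 95% intervals of the 23 reported Zfp36 targets for LPS against vehicle and for SA against OA at 5 h and 20 h, on horizontal axes that differ between panels, with filled points at an adjusted p under 0.05. With LPS 20 genes lie above 0 and 3 below, and Ccl2 lies at -2.87 for SA against OA at 20 h.

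Reported targets of Zc3h12a moved in both directions. In this and later lists, a rise or fall for SA against OA is a level higher or lower with SA than with OA. Of 15 measured, 7 rose and 2 fell with LPS (median 0.24), 3 rose and 1 fell at 5 h (median -0.05) and 2 rose and 2 fell at 20 h (median 0.08). The single fall at 5 h became 2 without replicate 3 of 5 h SA. In vehicle 7 of the 15 had means below the median gene, with LPS 5 and in the acid groups 7 or 8. The counts and medians of this list thus rest in part on dim genes. Il6, Il12b and Ptgs2 are on both lists, 3 of 23 in the first and 3 of 15 in the second. With LPS Il6 went from 1.72 ± 0.04 (SD, n = 3) to 9.79 ± 0.19 (SD, n = 4). The vehicle level lay below the median gene, so the size of that rise is uncertain, and the same holds for Il12b.

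Ptgs2, the inducible cyclooxygenase, was higher with SA than OA by 1.94 at 5 h (adjusted p = 1.81e-11) and 1.47 at 20 h (adjusted p = 1.90e-10), with the 20 h OA level of 3.62 ± 0.13 (SD, n = 4) below the median gene. Nfkbiz, an atypical NF-kB regulator, turned from 0.58 at 5 h (adjusted p = 8.79e-05) to -0.36 at 20 h (adjusted p = 0.00494), a change of -0.94 (adjusted p = 1.54e-05). Tfrc, the transferrin receptor, was lower by -0.79 at 20 h (adjusted p = 3.73e-08).

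The machinery these proteins recruit came next. Of 19 genes of deadenylation, the deadenylases and their partners, none rose and 3 fell with LPS (median -0.13, with 13.2% of all genes lower). The 3 falls became 1 without replicate 3 of vehicle and 5 under quantile normalisation. With SA against OA none rose and 1 fell at 5 h (median -0.01), and 1 rose and 2 fell at 20 h (median -0.06). Btg2, an antiproliferative protein that activates CCR4-NOT, was lower with SA by -0.76 at 5 h (adjusted p = 4.51e-06) and -0.57 at 20 h (adjusted p = 6.16e-05). Cnot1, the scaffold of the complex, was at -0.34 at 20 h (adjusted p = 0.0495). It read 7.86 on replicate 2 of 20 h SA, and without that array the difference was -0.16 (adjusted p = 0.229), which left 1 fall in the list, as did most other fits with 1 array left out. The single rise at 20 h became 2 without replicate 1 of OA, and the single fall at 5 h became 2 without replicate 1 of SA or of LPS.

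Decapping and 5′ decay genes rose and fell with LPS. Of 17 measured, 3 rose and 5 fell (median -0.22), against 9.22% and 13.2% of all genes. The 5 falls became 3 without replicate 3 of vehicle and 8 without replicate 4 of LPS. Dcp2, the decapping enzyme, rose by 1.70 ± 0.10 (SE; adjusted p = 1.18e-12) from 6.61 ± 0.17 (SD, n = 3) to 8.31 ± 0.06 (SD, n = 4). Xrn1, the 5′ to 3′ exonuclease, rose by 1.12 (adjusted p = 8.51e-09). Lsm5, Lsm6 and Lsm7, of the ring that binds deadenylated ends, were among the 5 that fell. For SA against OA, 1 rose and 1 fell at 5 h (median -0.04) and 1 rose and 4 fell at 20 h (median -0.09). Patl1, a decapping activator, was higher by 0.46 at both times (adjusted p = 0.00195 and 0.000485), and Lsm6 was lower by -0.85 at 20 h (adjusted p = 2.28e-05). The 4 falls at 20 h became 2 without replicate 2 or 3 of 20 h SA or replicate 3 or 4 of 20 h OA. The single fall at 5 h was lost without any one array of 5 h OA and without replicate 1, 2 or 3 of 5 h SA.

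Of 15 genes of the RNA exosome and other 3′ decay factors, 1 rose and 2 fell with LPS (median -0.04). For SA against OA none was called at 5 h (median -0.01). At 20 h 2 rose (median -0.02), Exosc1 and Ttc37 by 0.41 each (adjusted p = 0.00357 and 0.00417). The single rise with LPS was lost without replicate 1 or 3 of vehicle or replicate 1, 2 or 4 of LPS. Of 17 other binders of AU-rich elements or stem-loops, 2 rose and 3 fell with LPS (median 0.04), none was called at 5 h (median -0.04) and 1 fell at 20 h (median 0.04). That one was Zc3h12d, another Zc3h12 relative, at -1.16 (adjusted p = 3.02e-06). It also fell with LPS, by 0.90 (adjusted p = 0.000173), unlike Zc3h12a and Zc3h12c. N4bp1, an endonuclease with a related catalytic domain, rose by 1.51 with LPS (adjusted p = 1.05e-09), as did Arid5a, which protects Il6 mRNA, by 1.08 (adjusted p = 3.33e-08). The vehicle level of Arid5a, 4.07, lay below the median gene, so the size of its rise is uncertain. The 2 rises in this list became 4 without replicate 4 of LPS.

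Genes that act on these proteins after translation, or on their regulators, were examined next. The list of regulators of Zfp36 held 20 kinases, phosphatases and adaptors, some of which act on its upstream kinases. With LPS 5 rose and 2 fell (median 0.01). SA against OA had 2 rises at 5 h (median 0.05), and 4 rises and 2 falls at 20 h (median 0.03). The 4 rises at 20 h became 1 without replicate 2 of OA or replicate 1 of SA, and 2 without replicate 1 or 3 of OA. The 2 rises at 5 h became 1 without replicate 4 of OA, and the 2 falls with LPS became 1 in most fits with 1 array left out. Mapkapk2, the kinase that phosphorylates Zfp36, rose by 1.18 with LPS (adjusted p = 2.85e-10) and was higher with SA than OA by 0.41 at 5 h (adjusted p = 0.00304). At 20 h it was at -0.05 (adjusted p = 0.818), and the change between times was -0.46 (adjusted p = 0.0237).

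The list of regulators of Zc3h12a held 14 measured genes, among them kinases, the protease Malt1 and adaptors. With LPS 7 rose and 1 fell (median 0.43). SA against OA had 2 rises at 5 h (median 0.14), and 4 rises and 1 fall at 20 h (median 0.09). The fall with LPS was lost without replicate 1 or 2 of vehicle or replicate 2, 3 or 4 of LPS, and the fall at 20 h in most fits with 1 array left out. Malt1, the protease that cleaves Zc3h12a, was higher with SA by 0.85 at 5 h (adjusted p = 3.17e-08) and 0.72 at 20 h (adjusted p = 9.72e-08). Tank, an adaptor that binds kinases of the NF-kB pathway, was higher by 0.97 (adjusted p = 4.24e-08) and 0.49 (adjusted p = 0.000211).

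Feedback inhibitors of NF-kB were the last list. Of 16 measured, 11 rose and 1 fell with LPS (median 1.14), 8 rose and 2 fell with SA against OA at 5 h (median 0.36) and 5 rose and 2 fell at 20 h (median 0.10). The widest differences between SA and OA at 20 h were falls, in Tnip3, a partner of Tnfaip3, to a difference of -1.21 (adjusted p = 9.01e-10) and in Trib1, a pseudokinase, to -1.17 (adjusted p = 1.93e-08). At 5 h they were -0.33 (adjusted p = 0.0467) and -0.86 (adjusted p = 1.29e-05). The 2 falls at 5 h became 1 in most fits with 1 array left out, and the fall with LPS was lost without replicate 2 of vehicle. Tnfaip3 was higher by 0.81 (adjusted p = 1.59e-07) and 0.74 (adjusted p = 1.69e-07). Nfkbia was higher by 0.65 at 5 h (adjusted p = 5.59e-05) and at 0.20 at 20 h (adjusted p = 0.177). When the compared groups were fitted alone, the 8 rises at 5 h became 5.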

How the data were processed

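RNA of 23 samples was measured on single-channel arrays. Values were deposited on the log2 scale, 1 per probe set and array, and came from RMA per the submitters' processing notes, which also name limma without a role or version. Of 35556 probe sets, 21789 carried 1 gene symbol and gave 19938 genes, each by its probe set of highest mean. A mean for each of 6 groups was fitted with limma 3.58.1 in R 4.3.3 (lmFit, eBayes), on all arrays, with two-sided p-values adjusted over 19938 genes per comparison (Benjamini-Hochberg) and calls at an adjusted p under 0.05. The fit was tested on simulated data. The members, gene lists and comparisons were chosen with earlier results of these data known. Named besides the members were up to 4 called genes of largest difference per list in SA against OA and LPS against vehicle, 13 preset targets or regulators, and the 3 genes most correlated with each member. Alternatives were a variance trend, centring, quantile normalisation, array weights, fewer dim genes, other probe sets, a fit of only the groups compared, replicate number as a block, and omission of each array. Motifs were searched with Python 3.11.15, and figures drawn with matplotlib 3.10.9. The number of arrays limits the precision.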

Additional observations from a re-analysis of the deposited data

Results flagged for a closer look

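In 3 of 25 groups of a gene, the highest or lowest array lay far from the others by Dixon's criterion, which chance meets in about 1 of 20. They were Zfp36 in replicate 4 of 20 h OA (8.67), Zfp36l2 in replicate 4 of 5 h SA (8.49) and Zc3h12c in replicate 1 of 5 h OA (8.09). The SA to OA difference was not the same at 20 h as at 5 h for Zfp36, which changed by -0.54 (adjusted p = 0.00538, limma), and for Zfp36l1, which changed by -1.24 (adjusted p = 0.000968).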

How the results depend on the processing

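Over 60 member comparisons and 33 alternative fits, 1944 of 1980 values kept their direction and their side of the threshold. Of the rest 16 lost a call, 8 gained one and 12 changed sign, none of them past the threshold. The change of the SA to OA difference of Zfp36l2 between times was called with a variance trend (0.33, adjusted p = 0.0126), quantile normalisation (0.38), array weights (0.34) and without the dimmest 25% of genes (0.33). Zfp36l2 in SA against vehicle was called with the trend (-0.26), array weights (-0.27) and without dim genes (-0.26), and Zc3h12c in 20 h SA against vehicle with array weights (-0.32). Zfp36 in SA against LPS was lost under quantile normalisation (-0.16) and with the groups fitted alone (-0.26, adjusted p = 0.0892). Zc3h12a in 20 h OA against vehicle was lost with every probe set (-0.40, adjusted p = 0.0577) and with the groups alone (-0.40, adjusted p = 0.0980). Zfp36l2 in OA at 20 h against 5 h turned to 0.030 under quantile normalisation. The cause was not tested. Leaving out 1 array gave 0.27 to 0.34 for Zfp36 in LPS against vehicle, -0.30 to -0.21 for Zfp36 in SA against LPS, and -0.45 to -0.31 for Zc3h12a in 20 h OA against vehicle. Signs also turned in ranges of uncalled differences: -0.035 to 0.15 (Zfp36l1) and -0.074 to 0.00076 (Zfp36) for OA against vehicle, -0.0017 to 0.091 (Zfp36) for SA against vehicle, -0.027 to 0.12 for the Zc3h12a change between times, -0.046 to 0.13 (Zfp36l1) for SA and -0.037 to 0.019 (Zfp36l2) for OA at 20 h against 5 h.

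The genes called for OA against vehicle, 14, were 29 with the variance trend, 7 with the groups alone, and 7 to 16 with 1 array left out (7 without replicate 3 of vehicle). The groups alone gave 660 in place of 1131 for SA against OA at 5 h and 373 in place of 664 for SA against vehicle, which ranged from 389 (without replicate 2 of vehicle) to 724. Array weights gave 1537 in place of 937 for 20 h OA against vehicle. A replicate block kept all 60 member results on their side, for example -2.33 for Zfp36l1 in SA against OA at 20 h (adjusted p = 1.48e-09). Arrays of different groups that share a number (55 pairs) had a median correlation of deviations of 0.02, against -0.003 for different numbers (165 pairs). Of 23 arrays, 10 correlated best with their own number, and whether this exceeds chance was not tested. The numbers were thus not shown to pair samples, and pairing was not excluded. Signal over background was not given in the values used.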
